A study of Mus musculus with 18 samples.

Results

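Liver gene expression in cirrhotic mice that received Pien Tze Huang (PTH) every day was set against that in cirrhotic mice that received water. PTH is a traditional Chinese medicine sold as a compound preparation, and the abbreviation does not stand for parathyroid hormone here. The comparison rests on 12 of the 18 libraries of the study, 6 of the group named Cirrhosis-PTH and 6 of the group named Cirrhosis, chosen by their labels. All 21914 genes that passed a filter on low counts were tested, out of 54752 in the deposited table. All animals were male C57BL/6 mice, 6 weeks old at purchase. Both cirrhotic groups were injected intraperitoneally 2 times a week with 10 µl/g of a 10% mixture of carbon tetrachloride (CCl4) and corn oil, over 12 weeks. Cirrhosis-PTH mice took 0.25 mg of PTH per g by mouth each day from a solution of 50 mg/ml, and Cirrhosis mice took double distilled water. Control mice, whose 6 libraries give the background levels, had injections of corn oil alone and took water. No mice received corn oil with PTH, so a response to PTH in an uninjured liver cannot be told apart from a lesser response to CCl4. Each group held 15 mice, of which 6 have a library, 1 per mouse, made from total liver RNA after removal of ribosomal RNA.

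CCl4 is toxic to the liver because cytochrome P450 2E1, an enzyme concentrated in the hepatocytes around the central vein, turns it into a reactive radical. Repeated injury sets off stress programs in surviving hepatocytes, draws in monocytes and neutrophils, and turns stellate cells into myofibroblasts that lay down collagen. Hepatocytes divide their work along the lobule, with drug metabolism and glutamine synthesis around the central vein and urea synthesis near the portal vein. The liver is a mixture of cell types, and in bulk RNA fewer cells of a type and less RNA per cell cannot be told apart.

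Counts per library ran from 62.5 to 112 M (M, the mega prefix). Loci that collect ribosomal RNA reads held 37.1 to 41.0% of the counts in Cirrhosis and 31.4 to 48.8% in Cirrhosis-PTH. Levels are counts per M counts (CPM) on library sizes scaled by edgeR's TMM, which trims extreme genes, and changes are log2 differences of Cirrhosis-PTH minus Cirrhosis with their standard error (SE, n = 6 mice per group). Control levels written with ± are the mean and standard deviation over the 6 Control mice. A gene is called when its p in edgeR's quasi-likelihood test, adjusted over all tested genes, is under 0.05. Of the named genes, 126 of 282 overlap another annotated gene, and since the strand setting of the counting is not given in the sources used here, their reads may be shared. Among them are Abcg5 and Abcg8, Col4a1 and Col4a2, Ddit3 and Mars, and Timp1 and Syn1. The tissue was liver by its markers: Alb, encoding albumin, lay between 19074 and 35964 CPM (median 26096) in Cirrhosis and between 26479.9 and 30886 CPM (median 29551) in Cirrhosis-PTH.

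A total of 8464 genes differed between the groups. Of all tested genes, 4396 (20.1%) were higher and 4068 (18.6%) were lower in Cirrhosis-PTH. Changes of at least 2-fold were seen in 1168 higher genes (5.33%) and 1558 lower genes (7.11%). In 2586 genes (11.8%) every Cirrhosis-PTH mouse lay above every Cirrhosis mouse, and in 2416 genes (11.0%) every one lay below. Among protein-coding genes, 3546 rose and 3681 fell of 14949. Among long noncoding RNA (lncRNA) genes, 605 rose and 291 fell of 4321. The median change over all genes was 0.00 on the log2 scale. When libraries were scaled by their total count alone, this median moved to -0.34 and the split became 1508 higher and 6820 lower. No gene was called in opposite directions by these settings. The share of higher genes among those called was 51.9% with TMM and 18.1% without it, so counts of rising genes depend on the scaling, and a rise is meant relative to the bulk of genes.

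**Figure D1:**
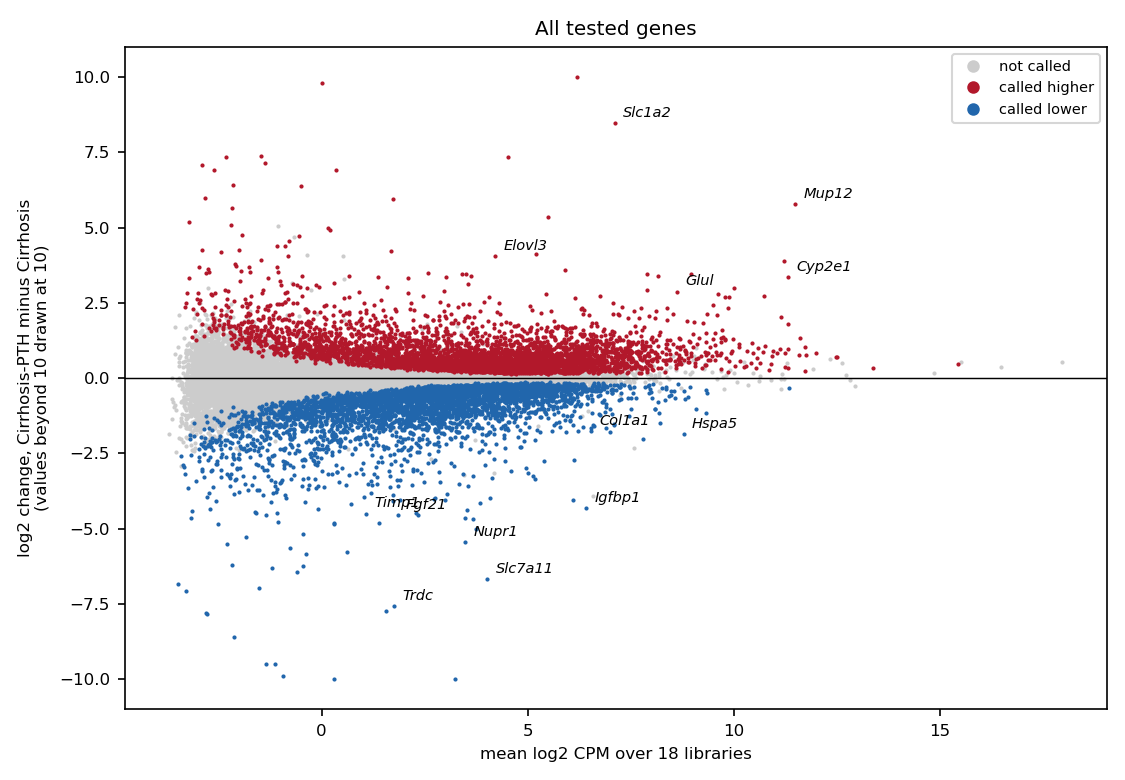
Log2 change of each tested gene (y axis, Cirrhosis-PTH minus Cirrhosis) against its mean log2 CPM over the 18 libraries (x axis), with called genes in red (higher, 4396) and blue (lower, 4068) and the others in grey. Slc1a2 and Mup12 stand highest among the labelled genes and Trdc and Slc7a11 lowest.

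The 10 largest rises, ranked among called genes whose groups lay apart, with an established symbol and a mean log2 CPM of at least 1, included transporters, steroid enzymes and urinary proteins of hepatocytes. Slc1a2, a glutamate transporter of the hepatocytes next to the central vein, was nearly silent in Cirrhosis: it ranged from 0.272 to 0.760 CPM in Cirrhosis (median 0.419) and from 112 to 234 CPM in Cirrhosis-PTH (median 163) (log2 change 8.47 ± 0.26, adjusted p = 2.4e-13), with 250.2 ± 22.2 CPM in Control. No mouse of either group came near the other. Hsd3b5, a steroid dehydrogenase of male mouse liver, ranged from 0.0776 to 0.349 CPM in Cirrhosis (median 0.146) and from 3.31 to 13.2 CPM in Cirrhosis-PTH (median 7.08) (log2 change 5.36 ± 0.44, adjusted p = 1.1e-07). Elovl3, a fatty acid elongase that is also male-biased, lay between 0.504 and 1.03 CPM (median 0.783) in Cirrhosis and between 8.96 and 17.9 CPM (median 12.2) in Cirrhosis-PTH (log2 change 4.06 ± 0.23, adjusted p = 8.4e-10). The groups were apart for both, yet neither gene reached its Control level, which was 128 ± 41.2 CPM for Hsd3b5 and 42.2 ± 8.91 CPM for Elovl3. Cyp26a1, the enzyme that degrades retinoic acid, lay between 1.06 and 4.09 CPM (median 2.96) in Cirrhosis and between 17.5 and 41.4 CPM (median 30.8) in Cirrhosis-PTH (log2 change 3.38 ± 0.34, adjusted p = 6.2e-07), above its Control level of 3.82 ± 1.42 CPM in every treated mouse. The sulfotransferase gene Sult2a8 rose by 3.40 and the uridine phosphorylase gene Upp2 by 3.45 (4.59 without Cirrhosis replicate 3, the highest Cirrhosis mouse).

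The major urinary protein genes Mup12, Mup17 and Mup19 belong to a cluster of nearly identical copies, so the split of reads among them is uncertain. Mup12 ran from 7.62 to 73.1 CPM in Cirrhosis (median 11) and from 362 to 2425 CPM in Cirrhosis-PTH (median 1051) (log2 change 5.79 ± 0.72, adjusted p = 8.3e-06, and 6.78 without Cirrhosis replicate 2). Mup17 changed by 3.90 (3.20 without Cirrhosis-PTH replicate 1). Mup19 changed by 3.46 (4.24 when Cirrhosis replicate 4 was left out and 2.78 when Cirrhosis-PTH replicate 2 was). No treated mouse reached the Control mean of 7498 ± 2702 CPM for Mup12, and levels varied several-fold from mouse to mouse. Vmn1r90, annotated as a vomeronasal receptor, completes the 10 (log2 change 3.48 ± 0.96, adjusted p = 0.0088).

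The 10 largest falls were ranked in the same way, and several of these genes were barely expressed in Control liver. Sprr1a, which encodes a small proline-rich protein of stressed epithelia, lay between 6.12 and 55.8 CPM (median 29.2) in Cirrhosis and had no count in any Cirrhosis-PTH library. Against a floor of 3 counts over the Cirrhosis-PTH group (0.00567 CPM, counting error only), its pooled level of 27.5 CPM was at least 4855-fold higher in Cirrhosis (adjusted p = 3.1e-06). Slc7a11, the cystine transporter that feeds glutathione synthesis, ranged from 16.4 to 76.3 CPM in Cirrhosis (median 53.4) and from 0.0899 to 0.947 CPM in Cirrhosis-PTH (median 0.384) (log2 change -6.67 ± 0.56, adjusted p = 1.5e-07). Nupr1, a small stress-induced nuclear protein, ranged from 6.31 to 79.6 CPM in Cirrhosis (median 29.7) and from 0.511 to 1.16 CPM in Cirrhosis-PTH (median 0.675) (log2 change -5.44 ± 0.60, adjusted p = 2.4e-06). Fgf21, a hormone released by stressed or fasted liver, lay between 4.17 and 17.7 CPM (median 6.88) in Cirrhosis and between 0.198 and 0.646 CPM (median 0.330) in Cirrhosis-PTH (log2 change -4.57 ± 0.83, adjusted p = 0.00032). Every Cirrhosis mouse lay above every Cirrhosis-PTH mouse for each of these genes. The serine synthesis enzyme Psat1 fell by 4.54 on the log2 scale, the glutathione transferase Gsta1 by 4.69, the surface protein gene Ly6d by 4.66 and the transcription factor Bhlha15 by 4.81. Trdc, the constant region of the T cell receptor delta chain (-7.57), and Vmn2r3, annotated as a vomeronasal receptor (-7.73), complete the 10.

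Genes of the endoplasmic reticulum (ER) stress response fell together. The ER folds secreted proteins, and when unfolded proteins build up, the sensors IRE1, PERK and ATF6 raise the chaperones and the machinery that degrades misfolded proteins. Of 32 tested ER chaperone and folding genes, 27 fell and 1 rose, with a median change of -0.65 beside 0.00 over all genes, and 21 of the 27 had groups that did not overlap. Hspa5, which encodes the chief ER chaperone BiP, lay between 588 and 998 CPM (median 838) in Cirrhosis and between 205 and 250 CPM (median 224) in Cirrhosis-PTH (log2 change -1.85 ± 0.13, adjusted p = 1.5e-09). Every treated mouse lay below every untreated one, and below the Control mean of 275 ± 49.4 CPM. Creld2, an ER-resident disulfide isomerase, ranged from 18.9 to 41.8 CPM in Cirrhosis (median 30.1) and from 4.99 to 7.18 CPM in Cirrhosis-PTH (median 5.94) (log2 change -2.38 ± 0.16, adjusted p = 1.8e-09). Fkbp11, a prolyl isomerase of the secretory pathway, changed by -2.29. Sil1, a nucleotide exchange factor for BiP, was the exception (log2 change 0.30 ± 0.08, adjusted p = 0.0054), and without scaling it was at -0.06.

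ATF6 and XBP1 are known to act through a short promoter sequence. The ER stress element, CCAAT and CCACG spaced by 9 bases of any kind, was searched on both strands of the 300 bases from 250 before to 50 after each RefSeq start on GRCm38.p6. It was found in 7 of 25 list genes with a promoter in the table (28.0%) and in 37 of 27025 genes overall (0.137%). The 7 were Hspa5, Creld2, Pdia6, Hsp90b1, Calr, Dnajc3 and Canx, and all 7 fell, with a median change of -0.71. Of the 18 genes without a match, 14 fell, with a median of -0.51. The list was written from textbook knowledge of a response known to use this element. The excess over all genes is thus no independent result. A match is a run of letters and no measurement of binding. The 4 with the smallest p are printed because their elements sit in the promoters of chaperones that fell, each 5′ to 3′ on the gene's strand with the element in capitals (in reverse complement where it lies on the other strand).
Hspa5: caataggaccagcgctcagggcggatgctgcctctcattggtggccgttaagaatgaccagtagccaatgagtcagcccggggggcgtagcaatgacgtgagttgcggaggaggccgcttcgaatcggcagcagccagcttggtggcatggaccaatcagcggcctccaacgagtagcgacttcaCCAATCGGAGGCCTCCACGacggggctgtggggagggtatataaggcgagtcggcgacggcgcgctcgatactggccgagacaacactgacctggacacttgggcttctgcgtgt
Creld2: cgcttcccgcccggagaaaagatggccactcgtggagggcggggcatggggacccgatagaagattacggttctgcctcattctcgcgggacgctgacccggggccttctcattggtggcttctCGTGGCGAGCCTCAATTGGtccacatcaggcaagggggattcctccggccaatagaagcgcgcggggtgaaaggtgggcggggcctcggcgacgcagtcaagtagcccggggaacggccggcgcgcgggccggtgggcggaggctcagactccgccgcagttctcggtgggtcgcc
Pdia6: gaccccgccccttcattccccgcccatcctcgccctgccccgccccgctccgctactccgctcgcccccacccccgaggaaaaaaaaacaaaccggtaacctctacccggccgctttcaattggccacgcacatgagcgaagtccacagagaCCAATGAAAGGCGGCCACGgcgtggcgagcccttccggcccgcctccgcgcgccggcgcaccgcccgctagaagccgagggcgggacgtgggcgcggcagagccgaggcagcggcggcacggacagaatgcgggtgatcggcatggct
Hsp90b1: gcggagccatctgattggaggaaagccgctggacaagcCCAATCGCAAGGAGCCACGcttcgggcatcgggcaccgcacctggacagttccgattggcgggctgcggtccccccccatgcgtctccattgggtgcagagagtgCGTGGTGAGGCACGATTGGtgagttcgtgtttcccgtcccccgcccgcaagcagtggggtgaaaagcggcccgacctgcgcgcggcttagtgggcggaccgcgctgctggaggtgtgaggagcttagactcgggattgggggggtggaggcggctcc
These windows are chr2:34771840-34772139 (plus strand), chr15:88819396-88819695 (plus), chr12:17266339-17266638 (plus) and chr10:86705395-86705694 (minus). Hsp90b1, encoding the ER chaperone GRP94, holds 2 elements, 1 on each strand. Pdia6, a protein disulfide isomerase, and Hsp90b1 changed by -1.15 and -0.71.

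The sensors and the degradation machinery were lower in part. Of 25 tested genes of ER stress sensing and ER-associated degradation, 15 fell and 2 rose (median -0.39). Eif2ak3, encoding the sensor kinase PERK, lay between 26.5 and 43.6 CPM (median 33.2) in Cirrhosis and between 11.6 and 13.7 CPM (median 12.3) in Cirrhosis-PTH (log2 change -1.42 ± 0.12, adjusted p = 1.5e-08). Creb3l2, a membrane-bound transcription factor of the ATF6 family, and Syvn1, the ubiquitin ligase HRD1, changed by -1.31 and -1.03.

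The integrated stress response runs through phosphorylation of eIF2α and translation of the transcription factor ATF4, which raises amino acid transport, tRNA synthetases and the factors CHOP and ATF3. Of 44 tested genes of this response, 35 fell and 2 rose (median -0.83). Atf4 itself lay between 52.3 and 71.7 CPM (median 62.1) in Cirrhosis and between 34.8 and 43.4 CPM (median 37.6) in Cirrhosis-PTH (log2 change -0.71 ± 0.09, adjusted p = 2.3e-06). Ddit3, encoding CHOP, ranged from 8.62 to 19.2 CPM in Cirrhosis (median 15.7) and from 2.29 to 3.46 CPM in Cirrhosis-PTH (median 2.6) (log2 change -2.43 ± 0.18, adjusted p = 4.5e-09), against 3.53 ± 0.611 CPM in Control. Atf3 lay between 12.9 and 49.4 CPM (median 34.5) in Cirrhosis and between 1.1 and 2.1 CPM (median 1.45) in Cirrhosis-PTH (log2 change -4.40 ± 0.31, adjusted p = 1.3e-08), so all 6 treated mice lay below the lowest untreated mouse and above the Control mean of 0.450 ± 0.170 CPM. Slc3a2, the heavy chain shared by several amino acid transporters, and Aldh18a1, an enzyme of proline synthesis, changed by -1.48 and -2.36. Cth, the last enzyme of cysteine synthesis, rose and ranged from 56.4 to 152 CPM in Cirrhosis (median 79.8) and from 162 to 274 CPM in Cirrhosis-PTH (median 195) (log2 change 1.27 ± 0.20, adjusted p = 4.6e-05). The letters TGATGNAA, found in amino acid response elements bound by ATF4, were in the promoter of 14 of 34 list genes (41.2%) and of 1219 of 27025 genes (4.51%). Of these 14, 11 fell (median -1.27), and of the 20 without the letters, 16 fell and 1 rose (median -1.07). Most genes fell in either subset. The list was written from textbook knowledge of this response, so the larger share with the letters is no independent result.

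**Figure D2:**
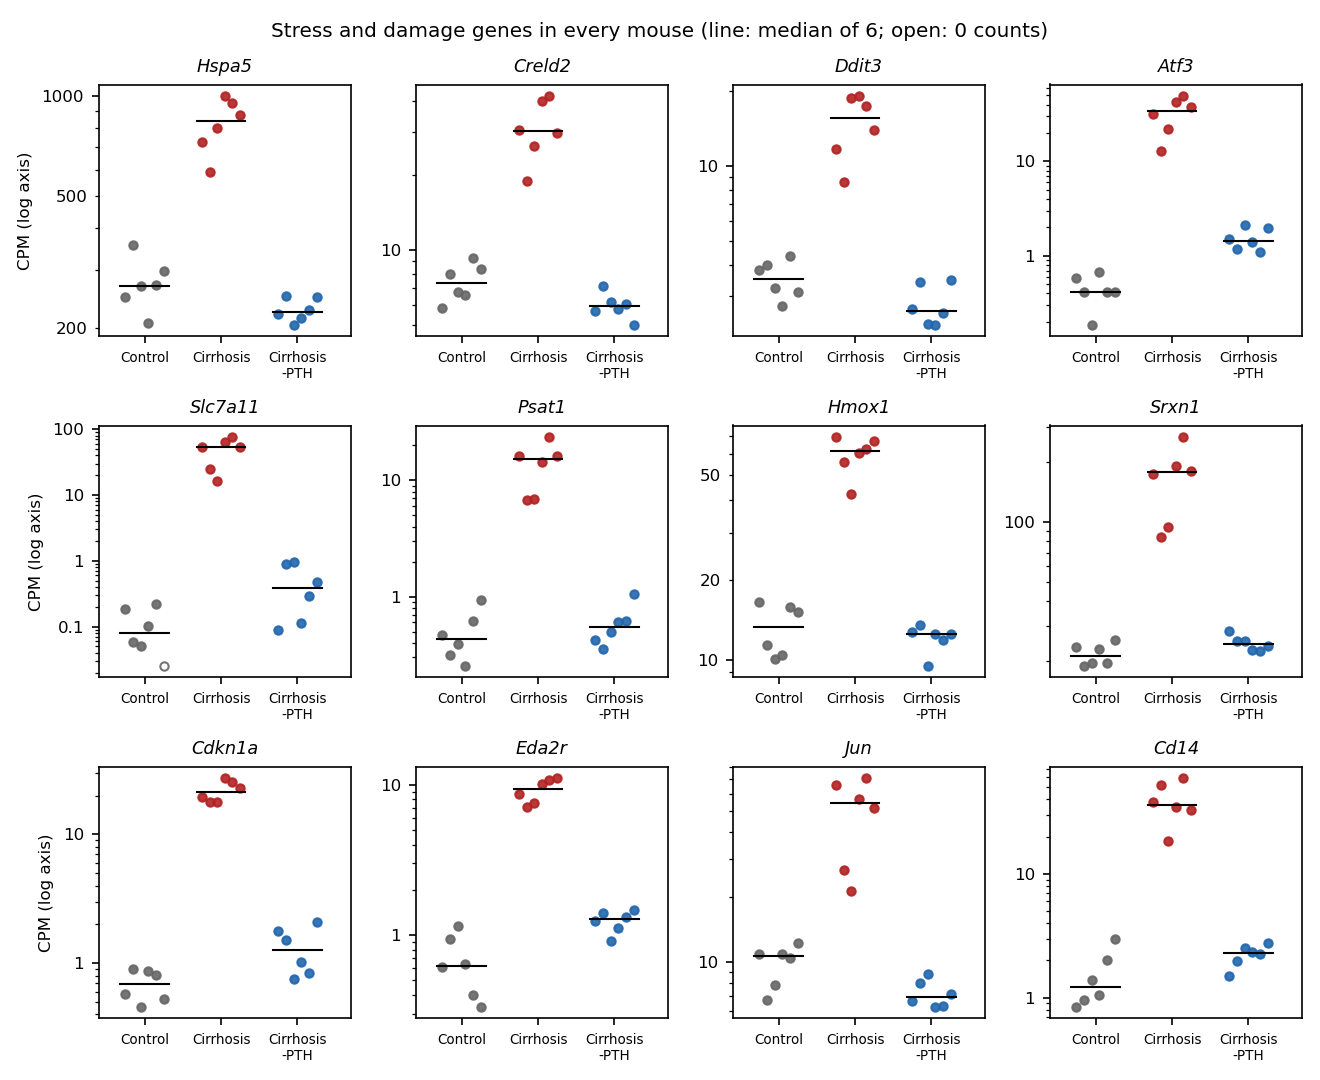
CPM (log axis) of 12 stress and damage genes in every mouse of the 3 groups, with a line at the median of 6 and open circles for libraries without a count. In each panel the Cirrhosis mice lie above all Cirrhosis-PTH mice.

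Oxidative and electrophilic stress is answered by NRF2, which raises glutathione and NADPH supply. Of 44 tested NRF2 target and glutathione genes, 24 fell and 8 rose (median -0.56; 28 and 4 without scaling). Hmox1, encoding heme oxygenase 1, lay between 42.3 and 69.3 CPM (median 61.6) in Cirrhosis and between 9.48 and 13.5 CPM (median 12.5) in Cirrhosis-PTH (log2 change -2.30 ± 0.14, adjusted p = 7.1e-10). Srxn1, sulfiredoxin, ranged from 84.0 to 266 CPM in Cirrhosis (median 177) and from 22.5 to 28.4 CPM in Cirrhosis-PTH (median 24.5) (log2 change -2.74 ± 0.22, adjusted p = 3.9e-08), and the treated mice sat near the Control level of 21.6 ± 2.68 CPM. The groups were far apart for both genes. Pgd, an enzyme of the pentose phosphate pathway, and Nqo1, a quinone reductase, changed by -1.71 and -0.69. Gpx1, glutathione peroxidase 1, rose by 1.05 (adjusted p = 5.5e-08).

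Genes that p53 switches on after DNA damage fell as well. Of 35 tested p53 targets, 21 fell and 6 rose (median -0.78; 23 and 0 without scaling), and in 20 of those that fell the groups did not overlap. Cdkn1a, encoding the cell cycle inhibitor p21, lay between 17.8 and 27.5 CPM (median 21.2) in Cirrhosis and between 0.753 and 2.1 CPM (median 1.26) in Cirrhosis-PTH (log2 change -4.04 ± 0.24, adjusted p = 8.4e-10). Eda2r, a death receptor of the tumour necrosis factor family, ranged from 7.08 to 11.1 CPM in Cirrhosis (median 9.44) and from 0.915 to 1.48 CPM in Cirrhosis-PTH (median 1.28) (log2 change -2.89 ± 0.22, adjusted p = 5.5e-09). Zmat3, an RNA-binding p53 target, and Mdm2, the ligase that degrades p53, changed by -1.40 and -0.84. Gdf15, a hormone of cellular stress, changed by -2.85 (adjusted p = 6.7e-06), and the repair nuclease gene Ercc5 by 0.43 in the other direction. Among 41 tested apoptosis and necroptosis genes, 21 fell and 9 rose (median -0.32; 27 and 2 without scaling). The receptor gene Tnfrsf12a, also called Fn14, ranged from 11.3 to 50.7 CPM in Cirrhosis (median 32) and from 1.81 to 4.44 CPM in Cirrhosis-PTH (median 2.12) (log2 change -3.59 ± 0.34, adjusted p = 3.2e-07), and Tnfrsf21 and the survival gene Bcl2a1b changed by -1.29 and -2.27.

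Heat shock and immediate early genes gave a one-sided result: 28 of 35 fell, none rose, and the median was -1.53. Jun lay between 21.5 and 70.9 CPM (median 54.1) in Cirrhosis and between 6.24 and 8.80 CPM (median 6.90) in Cirrhosis-PTH (log2 change -2.76 ± 0.26, adjusted p = 2.9e-07). Fos ranged from 3.09 to 9.81 CPM in Cirrhosis (median 6.31) and from 0.375 to 1.40 CPM in Cirrhosis-PTH (median 0.538) (log2 change -3.28 ± 0.37, adjusted p = 8.9e-07). Both encode subunits of the AP-1 transcription factor, and the groups did not overlap. Treated mice lay under the Control mean for Jun (9.87 ± 2.11 CPM) and on either side of it for Fos (0.446 ± 0.290 CPM). Klf4, another early-response transcription factor, changed by -1.61.

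**Figure D3:**
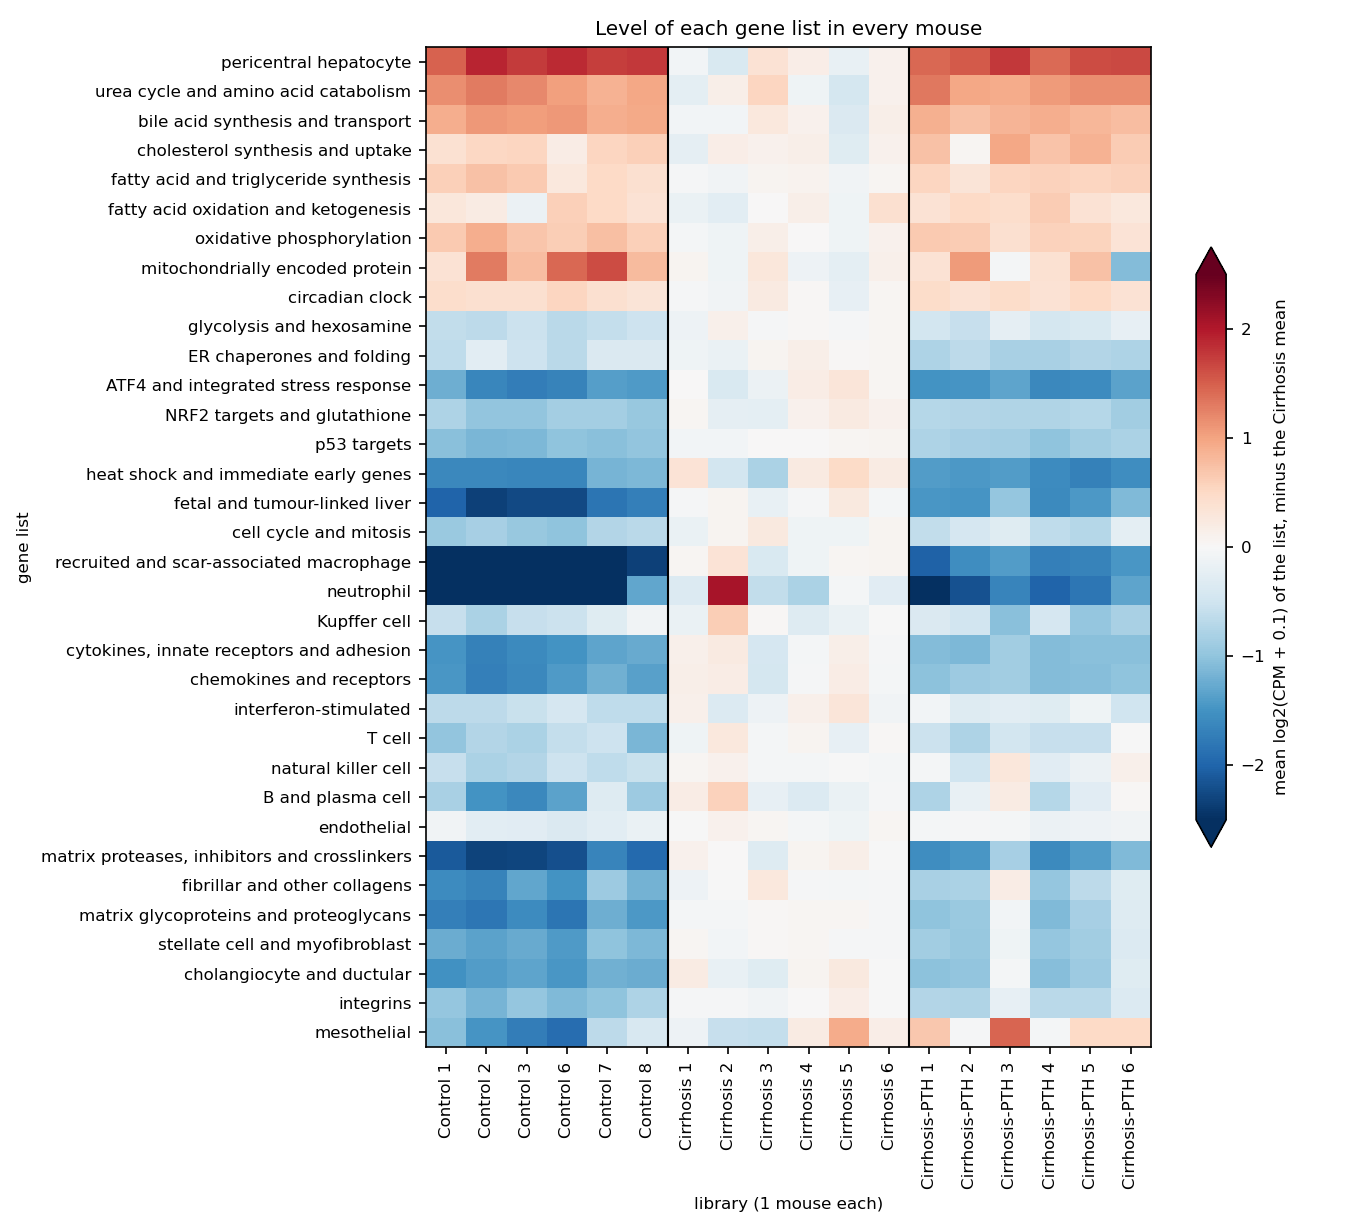
Level of 34 gene lists (rows) in each of the 18 mice (columns), as the mean log2(CPM + 0.1) of the list's tested members minus the Cirrhosis mean, on a colour scale that ends at 2.5 either way. Stress lists look alike in all 6 Cirrhosis-PTH mice, whereas collagen, stellate and ductular lists are pale in Cirrhosis-PTH 3 and, less so, 6.

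Collagen genes fell in part, and unevenly among treated mice. Collagens I and III form the fibrils of scar, and collagen IV the basement membrane. Of 34 tested collagen genes, 14 fell and 3 rose (median -0.61), beside 18.6% and 20.1% of all genes. Col4a1 lay between 166 and 195 CPM (median 184) in Cirrhosis and between 48.3 and 83.2 CPM (median 51.6) in Cirrhosis-PTH (log2 change -1.67 ± 0.12, adjusted p = 2.1e-09), and Col4a2 and Col5a1 changed by -1.42 and -1.47. Col1a1 ranged from 164 to 290.3 CPM in Cirrhosis (median 201) and from 24.8 to 136 CPM in Cirrhosis-PTH (median 42.5) (log2 change -1.77 ± 0.50, adjusted p = 0.01). Col1a2 lay between 125 and 206 CPM (median 149) in Cirrhosis and between 32.4 and 118 CPM (median 47.1) in Cirrhosis-PTH (log2 change -1.28 ± 0.36, adjusted p = 0.0096). Col3a1 ranged from 208 to 351 CPM in Cirrhosis (median 227) and from 44.1 to 139.8 CPM in Cirrhosis-PTH (median 77.4) (log2 change -1.66 ± 0.33, adjusted p = 0.0007). The groups did not overlap for these fibrillar genes, yet Cirrhosis-PTH replicate 3 held Col1a1 at 136 CPM and replicate 6 at 81.4 CPM while the other 4 treated mice lay between 24.8 and 44.0 CPM. All were above the Control mean of 13.3 ± 12.7 CPM. Col18a1, a collagen that hepatocytes also express, rose by 0.84 (adjusted p = 2.0e-06).

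The same pair of mice was highest in the lists of matrix and its producing cells. In 9 of 9 lists (collagens, matrix glycoproteins, matrix proteases, stellate cell, TGF-beta, integrin, Hippo, Notch and ductular genes) Cirrhosis-PTH replicate 3 had the highest and replicate 6 the next highest level among treated mice. Over all 67 lists, replicate 3 was the highest treated mouse in 28 and replicate 6 in 6. The order of replicate 3 first and replicate 6 next was not particular to these 9 lists. It was also seen in the ATF4, apoptosis, pericentral, recruited macrophage, cytokine, fetal and lysosome lists, among others. The collagen list in Cirrhosis-PTH, on the scale of mean log2(CPM + 0.1) relative to Cirrhosis, ran from -0.97 to 0.19, which put replicate 3 above the Cirrhosis mean, and the stellate cell list from -0.97 to -0.10. Over the 9 lists the treated mice spanned 0.40 to 1.16 log2 units, and over the ER, ATF4, NRF2, p53 and heat shock lists 0.15 to 0.30. Replicates 3 and 6 also had the largest TMM factors of the treated group (1.12 and 1.23), and replicate 6 had the lowest share of ribosomal RNA reads (31.4%). The part of these in the result was not tested. Without replicate 3 the count of collagen genes that fell was 17 in place of 14, and with the ribosomal share as a covariate it was 14. Whether the spread between treated mice differs between these lists beyond chance was not tested.

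**Figure D4:**
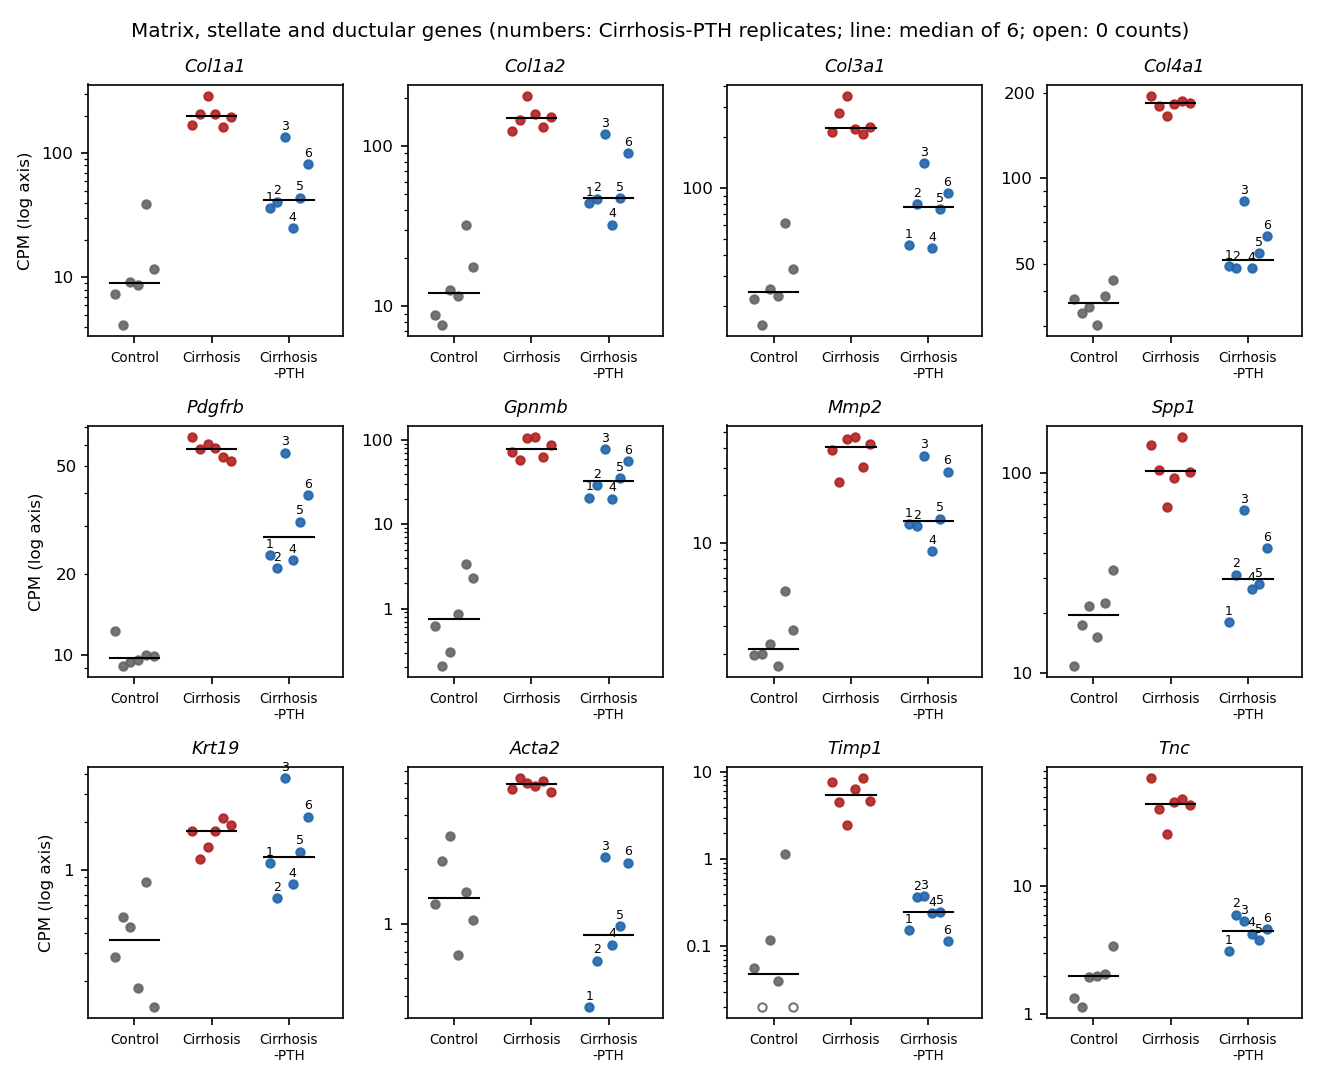
CPM (log axis) of 12 matrix, stellate cell and ductular genes in every mouse, with the replicate number above each Cirrhosis-PTH point, a line at the median of 6 and open circles for libraries without a count. Replicate 3 lies highest among treated mice in 11 of 12 panels, and replicate 2 in that of Tnc.

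Matrix glycoproteins and proteoglycans counted 25 lower and 5 higher of 60 tested (median -0.53; 37 and 1 without scaling), and 36 lower without Cirrhosis-PTH replicate 3. Tnc, tenascin C of wound matrix, ranged from 25.6 to 70.5 CPM in Cirrhosis (median 44.4) and from 3.13 to 6.03 CPM in Cirrhosis-PTH (median 4.45) (log2 change -3.33 ± 0.26, adjusted p = 2.4e-08). Nid1, nidogen of the basement membrane, lay between 72.0 and 115 CPM (median 98.7) in Cirrhosis and between 28.5 and 40.8 CPM (median 31.4) in Cirrhosis-PTH (log2 change -1.57 ± 0.11, adjusted p = 2.5e-09). Lamc1, a laminin chain, changed by -1.02, and Lama3, another laminin chain, rose by 1.66. Spp1, osteopontin, ranged from 67.9 to 152 CPM in Cirrhosis (median 102) and from 17.9 to 65.2 CPM in Cirrhosis-PTH (median 29.4) (log2 change -1.64 ± 0.31, adjusted p = 0.00045). Matrix proteases, their inhibitors and crosslinking enzymes counted 38 lower of 54 and 2 higher (median -1.07). Timp1, the main inhibitor of matrix metalloproteinases, lay between 2.47 and 8.54 CPM (median 5.51) in Cirrhosis and between 0.114 and 0.377 CPM (median 0.245) in Cirrhosis-PTH (log2 change -4.51 ± 0.74, adjusted p = 0.00011). For Tnc, Nid1, Spp1 and Timp1 every treated mouse was below every untreated mouse, and the Control mean of Timp1 was 0.227 ± 0.452 CPM. Adam8 ranged from 18.7 to 39.1 CPM in Cirrhosis (median 28.3) and from 1.68 to 4.94 CPM in Cirrhosis-PTH (median 3.11) (log2 change -3.18 ± 0.23, adjusted p = 5.7e-09), and Adamts12 and Mmp14 changed by -2.27 and -1.03. Mmp15, a membrane metalloproteinase of hepatocytes and other epithelia, rose by 0.64. Mmp2, made by stellate cells, overlapped between groups (log2 change -1.01 ± 0.33, adjusted p = 0.023), and its call was lost without Cirrhosis-PTH replicate 1, 2 or 5 (adjusted p from 0.051 to 0.053).

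Stellate cells store vitamin A and, once activated, take on smooth muscle genes. Of 36 stellate cell and myofibroblast genes, 17 fell and 1 rose (median -0.66). Acta2, smooth muscle actin, ranged from 5.36 to 6.42 CPM in Cirrhosis (median 5.93) and from 0.347 to 2.35 CPM in Cirrhosis-PTH (median 0.868) (log2 change -2.28 ± 0.40, adjusted p = 0.00015), and 4 treated mice were under 1 CPM while replicates 3 and 6 were at 2.35 and 2.18 CPM. Tagln, an actin-binding protein, lay between 4.69 and 10.5 CPM (median 6.40) in Cirrhosis and between 1.13 and 3.02 CPM (median 1.58) in Cirrhosis-PTH (log2 change -1.94 ± 0.23, adjusted p = 9.4e-07). The intermediate filament genes Nes and Des changed by -1.78 and -1.02. Pdgfrb, the growth factor receptor of stellate cells, ranged from 52.4 to 64.2 CPM in Cirrhosis (median 58.1) and from 21.0 to 56.2 CPM in Cirrhosis-PTH (median 27.3) (log2 change -0.84 ± 0.19, adjusted p = 0.0014), and replicate 3 lay inside the Cirrhosis range. Summed over the list, stellate markers took 621 to 684 CPM in Cirrhosis, 369.9 to 658 in Cirrhosis-PTH and 338 to 392 in Control, and their part in the lower collagen levels was not tested. Ecm1, a matrix protein that hepatocytes also make, was at log2 change 0.31 ± 0.09, adjusted p = 0.012, and at -0.05 without scaling.

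Among signals that bear on matrix cells, called genes fell more often than they rose. TGF-beta and activin genes, the chief fibrogenic pathway, counted 24 lower and 4 higher of 45 (median -0.52; 31 lower and 0 higher without scaling). Tgfb1 lay between 12.2 and 18.5 CPM (median 14.9) in Cirrhosis and between 4.77 and 8.73 CPM (median 7.57) in Cirrhosis-PTH (log2 change -1.09 ± 0.18, adjusted p = 4.0e-05). Tgif1 and Skil, corepressors of the pathway, and Itgav, the integrin subunit that frees latent TGF-beta, changed by -1.34, -1.04 and -0.98. Acvr2a, an activin receptor, was at 0.32 and at -0.02 without scaling. Integrin genes counted 10 lower and 1 higher of 19 (median -0.59), with Itga5, the fibronectin receptor subunit, at -1.09 and Itga9 at -0.62. Itga7 was at 0.35, and its call was lost without any of 7 libraries (Cirrhosis 1, 2, 4, 6 and Cirrhosis-PTH 4, 5, 6; adjusted p 0.050 to 0.074). Hippo pathway and YAP target genes counted 13 lower and 2 higher of 30 (median -0.35; 21 lower and 1 higher without scaling). Ctgf, a YAP target, lay between 7.94 and 14.8 CPM (median 10.3) in Cirrhosis and between 3.21 and 6.12 CPM (median 4.77) in Cirrhosis-PTH (log2 change -1.17 ± 0.17, adjusted p = 9.8e-06), with no overlap, as for Tgfb1. The receptor kinase gene Axl, the transcription factor gene Tead1 and Ajuba changed by -0.93, -0.71 and -1.35, and Amotl2 rose by 0.91.

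Notch pathway genes, which direct biliary fate, counted 9 lower and 2 higher of 22 (median -0.29). Sox9, a biliary and progenitor transcription factor, ranged from 10.6 to 42.4 CPM in Cirrhosis (median 21.8) and from 4.54 to 6.85 CPM in Cirrhosis-PTH (median 6.11) (log2 change -1.94 ± 0.24, adjusted p = 3.3e-06), and every treated mouse was below the lowest untreated mouse. Jag1, a Notch ligand, and Lfng, which modifies the receptor, changed by -1.05 and -0.99, and Hes6 rose by 1.22. Of 28 cholangiocyte and ductular genes, 10 fell and 1 rose (median -0.61). Cd24a and Ddr1 changed by -1.36 and -1.72, whereas the defining duct markers did not pass: Krt19 lay between 1.17 and 2.11 CPM (median 1.75) in Cirrhosis and between 0.667 and 3.78 CPM (median 1.2) in Cirrhosis-PTH (log2 change -0.04 ± 0.39, adjusted p = 0.96) and Epcam was at -0.70 (adjusted p = 0.14). Without Cirrhosis-PTH replicate 3, whose Krt19 at 3.78 CPM was above every Cirrhosis mouse, Epcam reached -0.96 with an adjusted p of 0.043. Lamb3 was at 0.50, and its call was lost without Cirrhosis 1 or 2 or Cirrhosis-PTH 1, 3 or 4 (adjusted p 0.051 to 0.077).

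Mesothelial markers are genes of the liver's surface layer. Of 16 tested (median 1.17), 4 were higher (25%) and 3 lower (18.75%), beside 20.1% and 18.6% of all tested genes. The rises rested on single mice: 1 or 2 genes were higher without any of Cirrhosis replicates 1 to 4 or Cirrhosis-PTH replicate 3, and 8 without Cirrhosis replicate 5. Leaving out 1 cirrhotic mouse moved the median between 0.79 and 1.40, and with genes of a mean log2 CPM of at least 1 it was -0.03. Gpm6a ranged from 2.02 to 4.08 CPM in Cirrhosis (median 2.34) and from 2.79 to 12.4 CPM in Cirrhosis-PTH (median 5.89) (log2 change 1.18 ± 0.41, adjusted p = 0.029), with the groups overlapping, and its call was lost without any of Cirrhosis 1 to 4 or Cirrhosis-PTH 3 (adjusted p 0.056 to 0.090). Lrrn4 lay between 0.292 and 1.03 CPM (median 0.573) in Cirrhosis and between 1.1 and 4.71 CPM (median 1.63) in Cirrhosis-PTH (log2 change 1.80 ± 0.54, adjusted p = 0.012), and the groups were apart. Upk1b was at 1.70, and its call was lost without Cirrhosis 1 or 2 or Cirrhosis-PTH 3 (adjusted p 0.052 to 0.084). The keratin gene Krt18, which hepatocytes share, fell by 1.56. The list level was highest in Cirrhosis-PTH replicate 3 (1.46) and ran down to -0.05 among treated mice, against -0.60 to 0.93 in Cirrhosis.

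Macrophage genes fell. Of 37 markers of recruited and scar-associated macrophages, 32 fell and 1 rose (median -1.54), and 28 of those that fell had groups that did not overlap. Cd14, the receptor for bacterial lipopolysaccharide, ranged from 18.4 to 59.5 CPM in Cirrhosis (median 36.1) and from 1.5 to 2.77 CPM in Cirrhosis-PTH (median 2.29) (log2 change -4.14 ± 0.32, adjusted p = 3.7e-08). Lgals3, galectin 3, lay between 38.4 and 133 CPM (median 80.5) in Cirrhosis and between 7.65 and 14.5 CPM (median 9.05) in Cirrhosis-PTH (log2 change -2.98 ± 0.26, adjusted p = 1.1e-07). No treated mouse reached the lowest untreated mouse for either gene. Clec7a, a receptor for fungal glucans, and Adgre1, encoding F4/80, changed by -1.68 and -0.96. Ccr2, the chemokine receptor of incoming monocytes, ranged from 13.9 to 37.8 CPM in Cirrhosis (median 16.1) and from 2.6 to 6.51 CPM in Cirrhosis-PTH (median 4.66) (log2 change -2.03 ± 0.34, adjusted p = 0.00011), again with no overlap. Trem2, a lipid receptor of scar-associated macrophages, changed by -1.23 (adjusted p = 0.0013), and treated mice kept a level above the Control mean of 0.515 ± 0.327 CPM: their lowest was 3.11 CPM. Gpnmb, another marker of that state, lay between 58.1 and 109 CPM (median 79.2) in Cirrhosis and between 20.2 and 77.7 CPM (median 32.3) in Cirrhosis-PTH (log2 change -1.05 ± 0.48, adjusted p = 0.099). It did not pass, and without Cirrhosis-PTH replicate 3 it was at -1.36 with an adjusted p of 0.041. Apoe, made mostly by hepatocytes, rose by 0.76.

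Resident macrophages gave a mixed picture. Of 21 Kupffer cell genes, 13 fell and 1 rose (median -0.76). Slc11a1 and Cd68, both of the phagosome, and Vcam1, an adhesion molecule, changed by -1.64, -1.52 and -1.61. Clec4f, the lectin that defines Kupffer cells in mice, lay between 30.0 and 57.3 CPM (median 35.2) in Cirrhosis and between 23.8 and 57.6 CPM (median 43.6) in Cirrhosis-PTH (log2 change 0.13 ± 0.17, adjusted p = 0.6), and the groups overlapped almost fully. Slc40a1, ferroportin, was at 0.38, and its call was lost without Cirrhosis-PTH replicate 4 (adjusted p = 0.054).

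Of 22 neutrophil genes, 19 fell and none rose (median -2.57), and 1 untreated mouse weighed on this result. The list level of Cirrhosis replicate 2 was 2.06, and no other Cirrhosis mouse exceeded -0.04. Without it, 11 genes fell, with a median of -1.51. S100a8, a calgranulin of neutrophils, stood at 37.5 CPM in that mouse and between 2.12 and 3.33 CPM in the other Cirrhosis mice, against 0.539 to 2 CPM in Cirrhosis-PTH. Its fitted value was log2 change -2.76 ± 0.85, adjusted p = 0.017, and -1.04 with an adjusted p of 0.15 without that mouse. Il1b, the cytokine interleukin 1 beta, ranged from 1.35 to 6.33 CPM in Cirrhosis (median 5.48) and from 0.681 to 1.29 CPM in Cirrhosis-PTH (median 0.894) (log2 change -2.35 ± 0.33, adjusted p = 7.4e-06). Mmp9 lay between 3.27 and 22.4 CPM (median 6.81) in Cirrhosis and between 1.03 and 2.45 CPM (median 1.81) in Cirrhosis-PTH (log2 change -2.40 ± 0.38, adjusted p = 5.1e-05), and Csf3r, the receptor for granulocyte growth factor, changed by -1.75. The groups did not overlap for Il1b and Mmp9. Summed neutrophil markers took 104 to 985 CPM in Cirrhosis, 14.6 to 37.4 in Cirrhosis-PTH and 7.56 to 129 in Control.

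Few lymphoid markers were called. T cell genes counted 4 lower (12.5%) and 2 higher (6.25%) of 32, beside 18.6% and 20.1% of all tested genes (median -0.42, and -0.27 without Cirrhosis-PTH replicate 2; 9 lower and 1 higher without scaling). Among all tested genes under a mean log2 CPM of 1, 10.5% were called lower and 7.82% higher. The part of low expression in the small lymphoid counts was not tested. Cd3e lay between 0.614 and 1.19 CPM (median 0.898) in Cirrhosis and between 0.438 and 0.972 CPM (median 0.577) in Cirrhosis-PTH (log2 change -0.43 ± 0.37, adjusted p = 0.4), with the groups overlapping. Tcf7, Il7r, Thy1 and Trdc were those that fell (-0.65 and -1.79 for the first pair), and Zap70 was among those that rose. Natural killer genes counted 1 higher (5%) and 0 lower of 20 (median -0.11), with Ncr1 at 0.37 (adjusted p = 0.45) and the death ligand gene Tnfsf10 at 0.60. B and plasma cell genes counted 4 lower and 0 higher of 29 (median -0.29; without Cirrhosis replicate 2 it was -0.10 with 1 higher, and without Cirrhosis-PTH replicate 1 it was -0.14). The 13.8% lower lay under the 18.6% of all tested genes. The genes that fell were Derl3 (-2.18), Prdm1 (-1.13), Xbp1 (-0.39) and Cd22. Derl3 and Xbp1 also serve the ER stress response. Thy1, Zap70 and Cd22 were singled out after their values were seen. Dendritic cell and MHC class II genes counted 14 lower of 29 and none higher (median -0.57), with Itgax at -1.69, Cd83 at -1.64 and Cd86 at -1.59.

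Endothelial genes counted 8 lower and 5 higher of 39 (median -0.04; 5 lower without Cirrhosis replicate 2; 17 lower and 1 higher without scaling). With TMM, 20.5% were lower and 12.8% higher, beside 18.6% and 20.1% of all tested genes. Ecscr, Plvap and Vwf, vessel genes outside the sinusoid, changed by -1.31, -0.58 and -0.72, and Kdr, the receptor for vascular endothelial growth factor, rose by 0.64. Stab2, a scavenger receptor of sinusoids, was at 0.15 (adjusted p = 0.12) and passed without Cirrhosis replicate 2 (0.21, adjusted p = 0.013). Lyve1 was at -0.85 (adjusted p = 0.1) and passed without Control replicate 1 or 2 (adjusted p 0.011 and 0.039). Pecam1 was at -0.24, and its call was lost without any of 8 libraries (Control 2, Cirrhosis 2, 5, 6 and Cirrhosis-PTH 1, 2, 5, 6; adjusted p 0.051 to 0.13). Erythroid genes counted 3 higher and 1 lower of 12: the heme enzyme genes Alas2 and Fech rose by 1.13 and 0.58 and Klf1 by 2.19, and Tfrc was at -0.42, a call lost without any of 12 libraries (Control 1, 3, 7, Cirrhosis 1, 4, 5, 6 and Cirrhosis-PTH 1 to 5; adjusted p 0.051 to 0.11). Mast cell, eosinophil and basophil genes counted 5 lower and 1 higher of 8, adipocyte genes 4 and 2 of 6, muscle genes 3 and 0 of 6, nerve and glia genes 4 and 1 of 9, and exocrine pancreas genes 0 and 0 of 3.

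Inflammatory signals fell. Of 58 cytokine, innate receptor and adhesion genes, 43 fell and 3 rose (median -1.17). Tnf lay between 0.824 and 3.22 CPM (median 2.74) in Cirrhosis and between 0.286 and 0.635 CPM (median 0.408) in Cirrhosis-PTH (log2 change -2.45 ± 0.34, adjusted p = 6.9e-06). Icam1, an adhesion molecule for leukocytes, ranged from 18.1 to 32.1 CPM in Cirrhosis (median 25.2) and from 8.41 to 13.2 CPM in Cirrhosis-PTH (median 10.8) (log2 change -1.21 ± 0.18, adjusted p = 2.4e-05). Both were below every untreated mouse in every treated one. Csf2rb, a shared cytokine receptor chain, changed by -1.57, and Tlr5, the flagellin receptor, rose by 1.92. Of 47 chemokine and receptor genes, 25 fell and 4 rose (median -0.92). Ccl2, the ligand that draws CCR2-bearing monocytes, ranged from 1.02 to 9.70 CPM in Cirrhosis (median 4.28) and from 0.0762 to 0.463 CPM in Cirrhosis-PTH (median 0.233) (log2 change -4.18 ± 0.53, adjusted p = 3.7e-06), with all treated mice below the lowest untreated mouse. Markers of the cells that make these signals fell too (macrophage list, 32 of 37), and their part in the result was not tested. Cxcl16 changed by -1.15, and Cxcl12 rose by 0.85. Ly6g and Il6, chosen as anchors, did not pass the filter on low counts.

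Interferon-stimulated genes gave a count that depended on the scaling and on single libraries: 20 fell and 6 rose of 52 (median -0.20). Without scaling 33 fell and 0 rose (median -0.55), and with RLE scaling, DESeq2 or the 12 cirrhotic libraries alone 2 rose. The count of falls was 10 to 13 without Cirrhosis replicate 1, 4 or 5 or Cirrhosis-PTH replicate 2 or 6, and the count of rises was 2 or 3 without Cirrhosis replicate 2, 3 or 6 or Cirrhosis-PTH replicate 1, 4 or 5. Oas1a and Oas2, sensors of double-stranded RNA, changed by -1.03 and -0.95, Trim30a by -0.71, and H2-K1, an MHC class I gene, rose by 0.55. Acute phase genes, which the liver makes in inflammation, counted 7 lower (29.2%) and 4 higher (16.7%) of 24 (median -0.45). Of all tested genes, 18.6% were lower and 20.1% higher. Without Cirrhosis replicate 2, whose list level of 1.26 was the highest of its group, 5 were lower and 5 higher, with a median of -0.11. Il1rn, the interleukin 1 receptor antagonist, lay between 11.4 and 54.8 CPM (median 32.6) in Cirrhosis and between 1.73 and 4.22 CPM (median 3.60) in Cirrhosis-PTH (log2 change -3.26 ± 0.38, adjusted p = 2.7e-06), with no overlap, Steap4 and Serpina3g changed by -1.12 and -1.03, and Saa4, a constitutive serum amyloid, rose by 1.1. Hamp, hepcidin, was at 0.56 (adjusted p = 0.07) and passed without Control 1, Cirrhosis 1 or Cirrhosis-PTH 3 (adjusted p 0.023 to 0.044).

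Hepatocyte identity genes rose. Pericentral genes counted 24 higher and 1 lower of 28 (median 1.34), and 20 higher without scaling. Glul, glutamine synthetase, ranged from 53 to 70.9 CPM in Cirrhosis (median 59.9) and from 309 to 506 CPM in Cirrhosis-PTH (median 462) (log2 change 2.88 ± 0.12, adjusted p = 7.7e-13), with 688 ± 88.4 CPM in Control. Cyp2e1, the enzyme that activates CCl4, lay between 150.5 and 442 CPM (median 345) in Cirrhosis and between 2693 and 3764 CPM (median 3045) in Cirrhosis-PTH (log2 change 3.35 ± 0.22, adjusted p = 1.5e-09), so all treated mice carried more of it than any untreated mouse. Oat, ornithine aminotransferase, changed by 2.92, and Slc1a4, a transporter of neutral amino acids, fell by 2.19. Periportal genes counted 15 higher and 1 lower of 23 (median 0.78; 10 and 3 without scaling): Pigr, Gls2 and Cyp2f2 rose by 1.3, 1.49 and 0.86, and Cdh1, E-cadherin, fell by 1.03. Of 31 hepatocyte transcription factors, 20 rose and 1 fell (10 and 2 without scaling, where the median was 0.13 in place of 0.47). Hnf4a, the master regulator of hepatocytes, lay between 295 and 342 CPM (median 315) in Cirrhosis and between 359 and 531 CPM (median 431) in Cirrhosis-PTH (log2 change 0.47 ± 0.08, adjusted p = 0.00011), with the groups narrowly apart. Cebpa, Ppara, Rxra and Mlxipl rose by 1.12, 0.98, 0.86 and 1.27, and Foxa3 was at -0.28, which was called lower.

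Sex-biased expression, set in liver by the pattern of growth hormone pulses, was higher on the male side. Of 26 male-biased genes, 23 rose and none fell, with or without scaling (median 1.96). Ugt2b1, a glucuronosyltransferase, lay between 56.8 and 88.5 CPM (median 67.0) in Cirrhosis and between 202 and 263 CPM (median 229) in Cirrhosis-PTH (log2 change 1.74 ± 0.12, adjusted p = 2.3e-09), and Nudt7, a peroxisomal coenzyme A hydrolase, changed by 2.36. The list's median stood at -1.29 in Cirrhosis-PTH against Control and at -3.35 in Cirrhosis against Control. Female-biased genes counted 3 higher (13.6%) and 6 lower (27.3%) of 22, beside 20.1% and 18.6% of all tested genes. The count of lower genes was 3 without any of Cirrhosis 1, 3 or 6 or Cirrhosis-PTH 1 or 2. The median, 0.05, was -0.30 without scaling. Cyp2a4, which shares reads with its close copy Cyp2a5, ranged from 0.753 to 27.8 CPM in Cirrhosis (median 6.59) and from 0.567 to 3.05 CPM in Cirrhosis-PTH (median 1.11) (log2 change -2.77 ± 0.65, adjusted p = 0.0027), and was -2.18 without Cirrhosis replicate 5, the highest mouse. Its groups overlapped. Cyp2b10 changed by -2.52 (-1.90 when Cirrhosis replicate 3 was left out and -3.26 when Cirrhosis-PTH replicate 6 was), Nipal1 by -1.28 and Acot3 by 1.36. Growth hormone, insulin-like growth factor and STAT genes counted 13 higher and 7 lower of 32 (median 0.29, -0.06 without scaling and 0.18 without Cirrhosis replicate 5). Ghr, the growth hormone receptor, lay between 91.1 and 164 CPM (median 129.5) in Cirrhosis and between 272 and 381 CPM (median 345) in Cirrhosis-PTH (log2 change 1.42 ± 0.12, adjusted p = 1.1e-08), with the groups apart. Igf1, Insr and Igfbp4 rose by 0.97, 0.78 and 0.88. Igfbp1, a binding protein that rises in fasting and stress, ranged from 169 to 280.4 CPM in Cirrhosis (median 250.3) and from 5.59 to 20.4 CPM in Cirrhosis-PTH (median 11) (log2 change -4.31 ± 0.35, adjusted p = 9.2e-08), and no treated mouse exceeded 20.4 CPM.

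With TMM, most genes for secreted and detoxifying products of hepatocytes were higher. Of 34 plasma protein genes, 26 rose and 3 fell (14 and 5 without scaling). Pon1, the esterase of high-density lipoprotein, lay between 128 and 206 CPM (median 167) in Cirrhosis and between 323 and 399 CPM (median 357) in Cirrhosis-PTH (log2 change 1.08 ± 0.11, adjusted p = 1.0e-07), with no overlap. The antitrypsin genes Serpina1c and Serpina1d, near-identical copies, rose by 0.96 and 1.16, and Serpina7, which carries thyroxine, fell by 2.77. Coagulation genes counted 18 higher and 0 lower of 24 (11 higher without scaling), among them Klkb1 (1.60), Proc (0.91) and F13b (0.91). Of 26 complement genes, 17 rose and 4 fell (10 and 4 without scaling), with C8g, C2 and C8b of hepatocytes at 1.13, 1.04 and 1.53 and C1qb of macrophages at -1.02. Cytochrome P450 genes counted 32 higher and 2 lower of 43 (median 1.04), with Cyp2j5 at 1.21 and Cyp3a25 at 1.86. Conjugating enzymes counted 35 and 5 of 49 (median 0.81; 23 higher without scaling), with Ugt3a1 at 1.65 and Ugt2a3 at 2.14.

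Most bile acid and sterol genes rose. Of 36 genes of bile acid synthesis and transport, 29 rose and 3 fell (median 0.92). Abcg5 and Abcg8, the partners of the sterol exporter that share a bidirectional promoter, rose by 1.65 and 1.66. Cyp7a1, which starts the classic route to bile acids, ranged from 4.05 to 135 CPM in Cirrhosis (median 38.9) and from 128 to 346 CPM in Cirrhosis-PTH (median 205) (log2 change 2.1 ± 0.56, adjusted p = 0.0067), and the groups overlapped because Cirrhosis replicate 3 reached 135 CPM. Slc27a5, which activates bile acids, rose by 1.29, and Abcc4, an exporter of the sinusoidal membrane, lay between 16 and 82.3 CPM (median 42.1) in Cirrhosis and between 5.73 and 8.07 CPM (median 6.84) in Cirrhosis-PTH (log2 change -2.69 ± 0.28, adjusted p = 8.8e-07), well apart in the other direction. Of 28 cholesterol synthesis and uptake genes, 20 rose and none fell (15 and 1 without scaling; median 0.75). Acat2, Insig1 and Lcat rose by 1, 1.25 and 0.75. Cirrhosis-PTH replicate 2 had the lowest list level of the treated group, 0.04, and the others lay between 0.63 and 0.96.

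Lipid genes split by role. Of 31 fatty acid and triglyceride synthesis genes, 18 rose and 3 fell (10 and 4 without scaling; median 0.54). Dgat2, which makes triglyceride, lay between 80.8 and 107 CPM (median 101) in Cirrhosis and between 178 and 236 CPM (median 210.0) in Cirrhosis-PTH (log2 change 1.11 ± 0.09, adjusted p = 7.3e-09), and Elovl7, an elongase nearly absent from Control liver, ranged from 3.81 to 14.1 CPM in Cirrhosis (median 9.72) and from 0.167 to 1.11 CPM in Cirrhosis-PTH (median 0.486) (log2 change -3.90 ± 0.44, adjusted p = 1.3e-06). Neither overlapped between groups. Fasn, fatty acid synthase, was at 0.69, with Cirrhosis-PTH replicate 2 at 99.7 CPM and the other treated mice at 172 CPM or more, and Scd1 was at -0.02 (adjusted p = 0.97). Of 26 lipid droplet and uptake genes, 11 rose and 7 fell (median 0.19, -0.15 without scaling and 0.30 without Cirrhosis replicate 6). Plin2, the coat protein of lipid droplets, lay between 199.5 and 659 CPM (median 446) in Cirrhosis and between 158 and 246 CPM (median 191) in Cirrhosis-PTH (log2 change -1.18 ± 0.20, adjusted p = 8.4e-05), and overlapped only because Cirrhosis replicate 3 was as low as treated mice. Lpl, lipoprotein lipase, ranged from 109 to 144 CPM in Cirrhosis (median 128) and from 34.7 to 69.2 CPM in Cirrhosis-PTH (median 51.4) (log2 change -1.28 ± 0.16, adjusted p = 2.2e-06), and Cd36, a fatty acid transporter, changed by -0.75. The lipase gene Pnpla2 and the droplet genes Fitm2 and Cideb rose by 0.72, 0.72 and 0.59. Of 40 fatty acid oxidation and ketogenesis genes, 28 rose and 3 fell (11 and 4 without scaling; median 0.61). Acaa1a, Decr2 and Abcd3 of the peroxisome rose by 1.06, 1.28 and 1.12, Cpt1a, the gate of mitochondrial oxidation, by 0.54, and Pdk4, a kinase that shuts pyruvate oxidation in fasting, fell by 2.25.

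Genes of glucose output rose more often than they fell, and of the called genes of glucose use more fell than rose. Of 30 gluconeogenesis and glycogen genes, 18 rose and 3 fell (9 and 4 without scaling; median 0.53). Pck1, the rate-limiting enzyme of glucose production, lay between 629 and 1501 CPM (median 1151) in Cirrhosis and between 2092 and 2487 CPM (median 2429) in Cirrhosis-PTH (log2 change 1.08 ± 0.19, adjusted p = 0.00014), with no overlap. Gys2, Pgm1 and Crtc2 rose by 1.17, 0.73 and 0.57. Of 36 glycolysis and hexosamine genes, 17 fell, 6 rose and 13 were not called (median -0.23; 21 lower and 3 higher without scaling). Gfpt1, which starts the hexosamine pathway, ranged from 45.6 to 65.6 CPM in Cirrhosis (median 60.9) and from 18.2 to 20.7 CPM in Cirrhosis-PTH (median 18.4) (log2 change -1.62 ± 0.10, adjusted p = 4.0e-10), and Pgm3 of the same pathway changed by -1.07. Pkm, the pyruvate kinase of proliferating and non-hepatocyte cells, lay between 44.3 and 81.9 CPM (median 58.8) in Cirrhosis and between 13.5 and 23.4 CPM (median 16.9) in Cirrhosis-PTH (log2 change -1.83 ± 0.17, adjusted p = 1.2e-07). All treated mice were below all untreated mice for Gfpt1 and Pkm. Gne, which makes sialic acid, rose by 1.02.

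Genes of oxidative phosphorylation encoded in the nucleus counted 53 higher of 58 and none lower (median 0.54). This count rests on the scaling: without it, 5 rose and 1 fell, and the median was 0.19, beside -0.34 over all genes. Sdha, of the succinate dehydrogenase complex, lay between 123 and 152 CPM (median 132) in Cirrhosis and between 217 and 253 CPM (median 242) in Cirrhosis-PTH (log2 change 0.82 ± 0.08, adjusted p = 6.3e-08), with no overlap, and Ndufb5 and Ndufb9 of complex I rose by 0.75 and 0.75. Of 13 protein genes encoded in the mitochondrion, 1 was called, and 5 were without Cirrhosis-PTH replicate 6, in which the list level was -1.09, the lowest of all 18 mice. That gene, mt-Co3, was at 0.38, and its call was lost without any of Cirrhosis 1, 2, 4 or 5 or Cirrhosis-PTH 1, 2, 4 or 5 (adjusted p 0.052 to 0.088). Urea cycle and amino acid catabolism counted 51 higher of 56 and none lower (43 and none without scaling; median 1.05). Cps1, the entry enzyme of the urea cycle, ranged from 1473 to 3146 CPM in Cirrhosis (median 2047) and from 3003 to 4806 CPM in Cirrhosis-PTH (median 3564) (log2 change 0.78 ± 0.17, adjusted p = 0.0011), with a narrow overlap, and Hgd and Fah of tyrosine breakdown rose by 1.06 and 1.06.

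Cell cycle genes fell in part. Of 80 genes of replication and mitosis, 32 fell and 7 rose (median -0.63; 46 and 4 without scaling). With only genes of a mean log2 CPM of at least 1, 34 were tested, of which 17 fell and 6 rose (median -0.24). Mki67 lay between 9.23 and 17.9 CPM (median 10.9) in Cirrhosis and between 3.81 and 7.34 CPM (median 5.28) in Cirrhosis-PTH (log2 change -1.22 ± 0.26, adjusted p = 0.00083) and Top2a ranged from 3.66 to 6.72 CPM in Cirrhosis (median 4.94) and from 1.09 to 3.10 CPM in Cirrhosis-PTH (median 1.78) (log2 change -1.42 ± 0.27, adjusted p = 0.0002). Both mark cells in cycle, and neither overlapped between groups. Mcm2, Mcm5 and Mcm6 of the replication helicase changed by -1.63, -1.66 and -1.59, Ccnd1, cyclin D1, by -1.45, and Tk1, thymidine kinase, rose by 1.67. The letters TTTGAA, part of the cell cycle homology region, were in the promoters of 28 of 64 list genes (43.8%) and of 5466 of 27025 genes (20.2%). Of the 28, 13 fell and 1 rose (median -0.93), and of the 36 without, 11 fell and 5 rose (median -0.37). This list, too, was written from textbook knowledge, so its larger share with the letters is no independent result. Of 30 fetal and tumour-linked liver genes, 18 fell and 1 rose (median -1.3). Tubb2b, a tubulin of fetal liver, lay between 6.78 and 28.3 CPM (median 19.3) in Cirrhosis and between 1.44 and 2.91 CPM (median 1.86) in Cirrhosis-PTH (log2 change -3.13 ± 0.29, adjusted p = 1.3e-07), with no overlap. Abcc1 changed by -1.61, Ctnnbip1 rose by 0.45, and Afp, alpha-fetoprotein, was at 0.15 (adjusted p = 0.71).

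Annexin and S100 genes, calcium-binding proteins raised in injured epithelium and macrophages, counted 13 lower and 5 higher of 21 (median -1.36; 14 and 2 without scaling). Anxa2 ranged from 45.0 to 132 CPM in Cirrhosis (median 94.0) and from 6.91 to 13.3 CPM in Cirrhosis-PTH (median 8.94) (log2 change -3.24 ± 0.21, adjusted p = 4.8e-09), with no overlap. Anxa5 and S100a11 changed by -1.39 and -2.68, and S100a1 rose by 0.84. Clock genes counted 12 higher and 5 lower of 21 (median 0.60). Dbp, an output transcription factor of the clock, lay between 10.4 and 27.4 CPM (median 19.4) in Cirrhosis and between 43.4 and 73.6 CPM (median 65.8) in Cirrhosis-PTH (log2 change 1.71 ± 0.17, adjusted p = 3.1e-07), with no overlap. Tef and Cry2 rose by 1.23 and 0.94, and Nfil3, which opposes Dbp, fell by 1.24. The hour of collection is not given in the sources used here. Wnt genes counted 12 higher (28.6%) and 7 lower (16.7%) of 42, beside 20.1% and 18.6% of all tested genes (median 0.19, and -0.18 without scaling). Lgr4, Tbx3 and Fzd4 were at 0.98, 1.56 and 1.15 and Fzd1 at -0.83. Lysosome genes counted 17 lower and 11 higher of 44 (median -0.04), and 23 and 1 without scaling (median -0.39), with Laptm5 of leukocytes at -1.23, Tfe3 at -0.88 and Scarb2 at 0.67. Metal and iron genes counted 8 higher (28.6%) and 6 lower (21.4%) of 28 (5 and 12 without scaling), beside 20.1% and 18.6% of all tested genes. The metallothionein gene Mt1 was at -1.27 (adjusted p = 0.087), which passed without Control 8 or Cirrhosis-PTH 5 (adjusted p 0.039 and 0.033). Proteasome genes counted 6 lower (19.4%) and 1 higher of 31 (10 lower without Cirrhosis replicate 2, and 3 without Cirrhosis replicate 4 or 5). Cytosolic ribosomal protein genes counted 10 lower (13.5%) and 1 higher of 74, beside 18.6% lower of all tested genes. Both counts rest on the scaling: without it, 22 proteasome and 48 ribosomal protein genes were lower and none was higher.

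**Figure D5:**
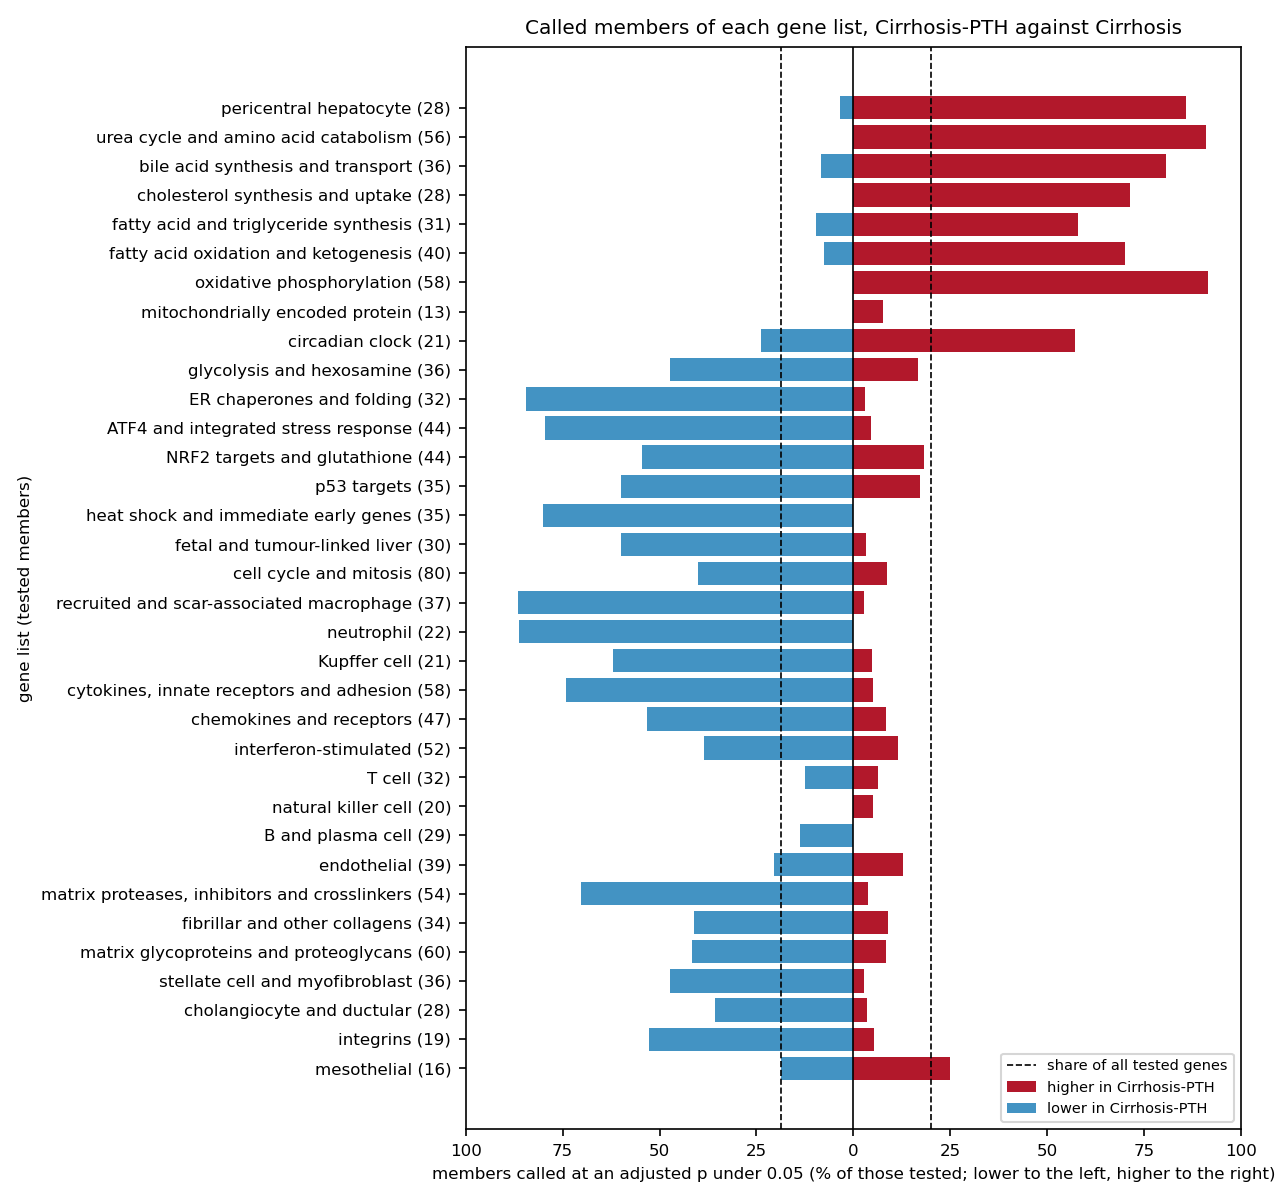
Share of the tested members of 34 gene lists (rows, tested members in brackets) that were called higher (red, to the right) or lower (blue, to the left) in Cirrhosis-PTH, in percent. Dashed lines mark the shares over all tested genes, 20.1% higher and 18.6% lower.

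With TMM, long noncoding RNA genes rose more often than they fell, in 605 against 291 of 4321. Without scaling the order was reversed, with 259 against 598. With TMM, the share of lncRNA genes called higher lay under the 20.1% of all tested genes. The share called lower likewise lay under the 18.6% of all tested genes. The lncRNA genes with the smallest p among the risers were 0610031O16Rik (1.39), 1700028E10Rik (2.73), Gm14097 (2.61) and Gm12909 (1.94). 1700028E10Rik lay between 0.671 and 1.98 CPM (median 1.26) in Cirrhosis and between 5.35 and 11 CPM (median 8.45) in Cirrhosis-PTH (log2 change 2.73 ± 0.23, adjusted p = 1.8e-08), near its Control mean of 7.07 ± 1.11 CPM. Among those that fell were Gm37940 (-0.88), A130071D04Rik (-1.14), which overlaps the leukocyte gene Ptprc, AC160637.1 (-1.67), which overlaps Pkm, and Ifi30 (-1.27), listed here as a processed transcript under the name of a lysosomal reductase. Of 45 lncRNA genes with established names, 10 rose (22.2%) and 12 fell (26.7%), beside 20.1% and 18.6% of all tested genes (median 0.02, and -0.32 without scaling). Dnm3os, the host of miR-199a-2 and miR-214, lay between 5.30 and 7.28 CPM (median 6.24) in Cirrhosis and between 1.93 and 4.24 CPM (median 2.5) in Cirrhosis-PTH (log2 change -1.23 ± 0.20, adjusted p = 4.2e-05), with no overlap, and Snhg15 and Pvt1 changed by -1.53 and -1.06. Mir22hg rose by 0.82. Meg3, an imprinted lncRNA, ranged from 1.59 to 5.12 CPM in Cirrhosis (median 3.09) and from 3.94 to 16.1 CPM in Cirrhosis-PTH (median 11.9) (log2 change 1.73 ± 0.41, adjusted p = 0.0025), and 2 treated mice lay inside the Cirrhosis range. Neat1 was at -0.25 (adjusted p = 0.71), and Malat1 at 0.24, a call lost without Cirrhosis 6 or Cirrhosis-PTH 3 or 5 (adjusted p 0.054 to 0.057) and a change of -0.11 without scaling. H19, the imprinted fetal lncRNA, was at -1.73, and its call was lost without any of Cirrhosis 2, 3 or 4 or Cirrhosis-PTH 1, 2, 4 or 5 (adjusted p 0.053 to 0.11).

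With TMM, how near treated mice came to Control differed from list to list. Medians of comparisons that share libraries are given side by side and were not tested against each other. They were not recomputed without scaling. TMM factors ran from 0.578 to 0.930 in Control, 1.21 to 1.37 in Cirrhosis and 0.854 to 1.23 in Cirrhosis-PTH. The part of the scaling in the nearness to Control was not tested. For the ATF4, NRF2 and p53 lists the medians were 0.85, 0.35 and 0.74 in Cirrhosis against Control and -0.10, -0.07 and 0.10 in Cirrhosis-PTH against Control. For collagens they were 1.81 and 0.65, for ductular genes 1.73 and 0.80, and for recruited macrophages 2.81 and 1.16. For pericentral genes they were -1.51 and -0.16, and for urea cycle genes -1.05 and -0.01. Natural killer genes (0.73 and 0.85), B and plasma cell genes (0.87 and 0.66) and mesothelial genes (0.97 and 2.39) had positive medians in both cirrhotic groups.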

How the data were processed

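Gene counts, 1 table of whole numbers for the 18 libraries, were deposited by the authors. Per the submitters' processing notes, the tools were HISAT2 2.2.1, StringTie 2.1.5, Bowtie 1.3.1, Bowtie2, Trim Galore and cutadapt 4.2 with the build GRCm38; which steps made the counts, and their strand setting, are not given in the sources used here.

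Groups came from the labels. Of 54752 genes, 18354 had no count, and 21914 passed edgeR's filterByExpr (minimum count 10, total 15). All 18 libraries were fitted in 1 model of 3 groups with TMM scaling and edgeR's robust quasi-likelihood test (edgeR 4.0.16, R 4.3.3), with p adjusted by Benjamini-Hochberg over all tested genes. Symbols of 54723 identifiers were matched to GENCODE mouse release 21. Procedures were tested on simulated data in which few genes changed, equally many up and down. That setting cannot show how the results depend on the scaling. DESeq2 1.42.0 and limma 3.58.1 were alternatives, with other scalings, filters, sample sets and each library left out. No pair of libraries agreed within sampling noise (lowest chi-square per degree of freedom 35.0).

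Members and lists were chosen with earlier results of these data known. Named genes were the 10 largest rises and 10 largest falls without overlap (mean log2 CPM of at least 1, established symbol), in each list with 5 or more tested members the 3 called with the smallest p in the main direction and 1 in the other, a set of anchor genes, the 4 lncRNA genes with the smallest p each way, and the 5 genes of largest spread among Cirrhosis-PTH mice. Some genes that this rule names are not reported here. For muscle, nerve, adipocyte, mast cell, proteasome and ribosomal protein lists only counts are given, and for the metal list counts and anchor genes. Promoters came from RefSeq on GRCm38.p6. Floors of 3 counts cover counting error only. Each SE of a change is the size of the change over the square root of F in the quasi-likelihood test. It includes the spread between mice, estimated over all 18 libraries.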

Additional observations from a re-analysis of the deposited data

Results flagged for a closer look

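Of 704 groups of 6 libraries looked at (named genes, gene lists and library measures), 50 (7.10%) held a mouse whose gap to the next, over the group's range, exceeded Dixon's value of 0.625; chance gives about 1 in 20. Values are CPM for genes and mean log2(CPM + 0.1) relative to the Cirrhosis mean for lists.

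Cirrhosis replicate 3 stood apart most often among single genes, in 11. It was the lowest Cirrhosis mouse for Tnfrsf21 (10.1), Il1b (1.35), Tnf (0.824), Steap4 (89.7), Xbp1 (79.9), Skil (29.9), Abcc1 (12.3) and Cdh1 (44.7), and the highest for Lama3 (3.21), Tk1 (12.7) and Tnfsf10 (6.81). It was also lowest for the chemokine list (-0.44) and the matrix protease list (-0.32), and highest for the collagen list (0.26). Cirrhosis replicate 2 was highest for S100a8 (37.5), Csf3r (31.6), Ccr2 (37.8), Prdm1 (4.15), Pecam1 (28.8) and Mup12 (73.1), lowest for Lyve1 (9.78) and Vmn2r3 (2.65), and highest for the neutrophil list (2.06) and the Kupffer cell list (0.62). That library also had the most genes with 10 or more counts, 22966 against 21747 to 22131 in the others.

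Cirrhosis replicate 5 was lowest for Cebpa (45.8) and Ppara (62.0) and highest for the integrin list (0.16). Cirrhosis replicate 4 was highest for Mup19 (107). Cirrhosis replicate 6 was the only Cirrhosis mouse with the microRNA gene Gm47299 near 0 (0.00944), where the other 5 lay between 26.2 and 37.9.

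Among treated mice, Cirrhosis-PTH replicate 6 was lowest for mt-Co3 (719), Sult2a8 (261), Gys2 (100.1), Il1rn (1.73), Ifi30 (5.31) and the NRF2 list (-0.87), and highest for Itga5 (20.4) and Fos (1.40). Cirrhosis-PTH replicate 3 was lowest for Hamp (116), Ndufb5 (24.3) and Hmox1 (9.48) and highest for the cytokine list (-0.87). Cirrhosis-PTH replicate 2 was lowest for Fasn (99.7), the cholesterol list (0.042) and the fatty acid synthesis list (0.33), and highest for Tbx3 (34.0) and Tnfrsf12a (4.44). Cirrhosis-PTH replicate 1 was lowest for Glul (309) and highest for Igfbp4 (1032), and replicate 4 was lowest for the p53 list (-1.02).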

How the results depend on the processing

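No gene was called in opposite directions by any of the settings run. Without scaling beyond the total count, the genes called were 1508 higher and 6820 lower, those past 2-fold 562 and 2804, and called lncRNA genes 259 and 598; Sil1 stood at -0.059, Ecm1 at -0.050, Acvr2a at -0.024 and Malat1 at -0.11, each positive with TMM, and the cause was not tested. A minimum mean log2 CPM of 1 left 616 and 865 genes past 2-fold and 239 and 79 lncRNA genes, since fewer genes were tested. limma-voom called 437 lncRNA genes lower; the cause was not tested. DESeq2 called 8958 genes and edgeR on the 12 libraries alone 8786. Leaving out 1 library at a time gave 7724 to 8604 differing genes. Leaving out Control replicates 7 and 8 together, or Cirrhosis 2 with Cirrhosis-PTH 3, were settings chosen after seeing the data, and called 8787 and 8058 genes. For single named genes, 9124 of the values recomputed kept direction and side of the threshold, 127 lost the call, 34 gained it and 4 turned sign.

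Same-numbered mice of the groups had correlations of deviations from -0.06 to 0.01, 0 of 6 over 0.1, and 1 of 6 matched its own number best. The labels do not say whether equal numbers mark a shared cage, batch or day, and these correlations cannot exclude it. With the replicate block on the 12 libraries, 7925 genes were called (3671 higher and 4254 lower) in place of 8786.

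Total counts of 62.5 to 112 M limit the rare transcripts. Genes under a mean log2 CPM of 1 were called in 1805 of 9855 cases.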

Other observations

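T cell receptor genes did not move together. Trdc, of the delta chain, lay between 2.39 and 18.9 CPM in Cirrhosis and between 0 and 0.129 CPM in Cirrhosis-PTH, while Cd3g lay between 0.217 and 0.582 CPM in Cirrhosis and between 0.114 and 0.629 CPM in Cirrhosis-PTH (log2 change 0.11 ± 0.39, adjusted p = 0.86). Trac was at -0.78 ± 0.55 (adjusted p = 0.29), Trbc2 at 0.12 ± 0.29 (0.79) and Cd8a at -0.25 ± 0.36 (0.64), by edgeR's quasi-likelihood test. In the untreated mice Trdc thus exceeded Cd3g, the chain that every T cell receptor needs, on this count scale, which is not per length. Trdc overlaps the annotated genes Gm43434 and Trdv5. These genes besides Trdc were looked up after its value was seen.

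The 5 genes with the largest spread among Cirrhosis-PTH mice were mostly on or off by mouse. Gm20716, which overlaps Adnp and Dpm1, was at 38.4, 40.8 and 17.8 CPM in treated replicates 1 to 3 and without a count in replicates 4 to 6. Gm15564, antisense to Kpna1 and Parp9, was at 147 and 106 CPM in treated replicates 1 and 3 and at 0.0938 CPM or less in the other 4, and was likewise present in 4 of 6 Cirrhosis mice (109 to 161 CPM) and absent from 2. Gm47299, a microRNA gene inside Rn7s2, was at 55.2, 55.5 and 75.8 CPM in replicates 4 to 6 and at 0.0142 CPM or less in replicates 1 to 3. None of these passed the test between groups. Mup-ps18, an annotated pseudogene of the urinary protein cluster, had no count in any Cirrhosis mouse and was present in Cirrhosis-PTH replicates 1 (35.8 CPM) and 4 (27.1 CPM) alone. It was called (adjusted p = 0.029) with a pooled level at least 2187-fold above the floor of 3 counts, and the call was lost without either mouse (adjusted p 0.053 and 0.056). The last was 1 of 2 identifiers that share the symbol Sept2, at 0 to 27.9 CPM in treated mice.

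Vmn2r3 had no count in any Control mouse and lay between 2.65 and 12.7 CPM in Cirrhosis. Vmn1r90 was absent from Control replicates 3 and 6 and at 9.03 to 17.4 CPM in the other 4.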
